A study of Mus musculus with 8 samples.

Results

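A set of 10 genes for the breakdown of branched-chain amino acids (BCAA) was followed in mouse thigh muscle: Bcat2, Bckdha, Bckdhb, Dbt, Bckdk, Ppm1k, Ivd, Mccc1, Mccc2 and Hibadh. They were taken by symbol from the table of raw RNA-seq counts, and all 10 were among its 14012 genes. RNA came from the quadriceps femoris (QF) of 4 Grpel1 skm-/- mice, called knockout here, and of 4 Grpel1 flox/flox mice, called control, with 1 library per mouse. GRPEL1 is a co-chaperone of the HSP70 protein that pulls precursor proteins into the mitochondrial matrix. In the knockout the floxed Grpel1 is cut by a Cre recombinase made under the human skeletal actin promoter and switched on by tamoxifen, given from the age of 5 weeks, so the other cells of the muscle keep the gene. The study describes a rapid muscle atrophy in the knockout. Its account of the RNA does not state whether these mice were taken at the end point of that atrophy. The labels list no treatment for either group, and whether the controls of these libraries were given tamoxifen is not stated. The study speaks of floxed littermates as untreated in its account of body weight. Its weight curves also include floxed mice without Cre and wild-type Cre mice, both given tamoxifen. If the controls of these libraries were untreated, effects of tamoxifen and of the deletion cannot be told apart in them. The count of the whole Grpel1 gene showed no difference past the threshold (log2 fold change -0.066, Benjamini-Hochberg adjusted p = 0.49 in edgeR's quasi-likelihood F-test), so this count does not check the labels, by which the groups are called.

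Leucine, isoleucine and valine are broken down in mitochondria, and skeletal muscle is the main site of the first step, because the liver makes little of the enzyme for it. BCAT2 moves the amino group to 2-oxoglutarate, which leaves branched-chain ketoacids, and the branched-chain ketoacid dehydrogenase complex (BCKDH) then removes their carboxyl group in the step that commits them to oxidation. BCKDK phosphorylates and thereby inhibits BCKDH, the phosphatase PPM1K takes the phosphate off again, and separate branches carry the acyl-CoA products of each amino acid on to acetyl-CoA, acetoacetate or succinyl-CoA.

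Of the 10 genes, 5 were lower in knockout muscle at an adjusted p under 0.01 and 0 were higher, where 44.7% of all genes passed, 21.1% lower and 23.6% higher. The 5 were the kinase Bckdk, the phosphatase Ppm1k and the leucine genes Ivd, Mccc1 and Mccc2, at 58.1% to 75.2% of the control level. The transaminase Bcat2, the BCKDH subunits Bckdha, Bckdhb and Dbt and the valine gene Hibadh did not pass. The median log2 fold change of the 10 genes was -0.33, against 0.065 over all genes. These directions hold on scales that correct for RNA composition, while on library totals alone 0 of the 10 were lower and 5 were higher, with a median of 0.34 against 0.73 over all genes. On that scale 6.23% of all genes were lower and 60.6% higher, so 5 of 10 higher was no more than the background. The median of the 10 genes minus that of all genes was -0.40 on either scale. This follows from the scaling, which moves all genes by nearly the same amount, and is no separate check.

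The promoters of the 5 genes that passed the threshold as lower are shown. Their shared direction follows from that choice, and a shared regulator was not tested. Each line gives the 250 bases before the RefSeq transcription start on GRCm38.p6, read 5′ to 3′ on the strand of the gene, at chr7:127903823-127904072 (+) for Bckdk, chr6:57535488-57535737 (-) for Ppm1k, chr2:118861744-118861993 (+) for Ivd, chr3:36000679-36000928 (-) for Mccc1 and chr13:100015640-100015889 (-) for Mccc2. Capitals mark CCAAT or its reverse complement ATTGG, the letters of the CCAAT box, which the factor NF-Y is known to bind.
Bckdk: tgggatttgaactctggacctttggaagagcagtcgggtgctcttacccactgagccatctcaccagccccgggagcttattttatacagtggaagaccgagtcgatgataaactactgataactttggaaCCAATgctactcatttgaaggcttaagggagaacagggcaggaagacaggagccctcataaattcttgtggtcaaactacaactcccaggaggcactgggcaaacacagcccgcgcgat
Ppm1k: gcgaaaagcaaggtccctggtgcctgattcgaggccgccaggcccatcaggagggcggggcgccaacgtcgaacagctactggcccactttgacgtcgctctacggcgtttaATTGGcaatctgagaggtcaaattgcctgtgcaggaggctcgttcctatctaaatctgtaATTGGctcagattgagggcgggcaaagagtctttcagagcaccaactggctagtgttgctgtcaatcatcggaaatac
Ivd: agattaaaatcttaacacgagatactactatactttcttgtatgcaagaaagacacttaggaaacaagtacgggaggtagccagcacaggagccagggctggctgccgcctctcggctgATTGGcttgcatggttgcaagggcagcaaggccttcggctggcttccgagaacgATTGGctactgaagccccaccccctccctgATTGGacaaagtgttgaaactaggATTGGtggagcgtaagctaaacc
Mccc1: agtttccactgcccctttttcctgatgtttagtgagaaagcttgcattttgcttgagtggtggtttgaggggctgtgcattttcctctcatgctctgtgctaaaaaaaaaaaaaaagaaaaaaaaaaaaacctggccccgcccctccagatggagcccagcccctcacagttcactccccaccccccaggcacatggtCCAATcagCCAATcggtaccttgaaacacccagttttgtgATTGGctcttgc
Mccc2: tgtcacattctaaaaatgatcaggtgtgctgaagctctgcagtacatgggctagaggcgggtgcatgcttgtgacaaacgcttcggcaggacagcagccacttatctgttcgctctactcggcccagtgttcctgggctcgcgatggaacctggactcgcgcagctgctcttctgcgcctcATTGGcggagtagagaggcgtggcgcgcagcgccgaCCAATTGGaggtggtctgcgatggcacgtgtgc
The letters were found in 7 of the 9 promoters that matched the RefSeq table, which held no entry for Dbt, and in 33.8% of all 32851 promoters of the same length. Ivd had 4 copies, at 131, 77, 47 and 23 bases before the start, and Mccc1 had 3. Mccc2 also had 3, of which the pair at 33 and 30 bases overlap in a palindrome. Of all promoters 2.79% held 3 or more copies. Ppm1k and Bckdhb had 2 copies each, which 10.1% of all promoters reach, Bckdk and Hibadh had 1 each, and Bcat2 and Bckdha had 0. The copies thus lay in the genes that fell and also in Bckdhb and Hibadh, which did not pass the test. The estrogen-related receptor element TNAAGGTCA and the ATF4 composite element TGATGNAA, searched like all motifs here on both strands, were in 0 of the 9 windows and in 1.14% and 3.45% of all promoters. The E-box CACGTG was found in Mccc2 (6.02% of all promoters), the NRF1 element in Hibadh (3.74%) and the GC box GGGGCGGGG in Bckdhb and Mccc1 (10.4%). The CCAAT box had the most matches of the 6 motifs searched, both in the 9 windows and over all promoters. These are matches of letters only, and binding was not measured.

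The 8 libraries held 16017565 to 20361144 counts on the genes of the table. The factors for RNA composition (TMM) were 0.747 to 0.844 in control muscle and 1.19 to 1.33 in knockout muscle. The 10 skeletal muscle markers, such as Ckm (muscle creatine kinase) and Acta1 (skeletal actin), took 21.9% to 25.8% of the counts of a control library and 10.5% to 13.4% of those of a knockout library. All 10 of these markers were lower in knockout muscle, with summed levels of 259491 to 345425 CPM (counts relative to the composition-scaled library size) in control muscle and 79989 to 112507 CPM in knockout muscle. Of the 7 endothelial markers 5 were lower (313 to 465 CPM summed in controls, 238 to 263 CPM in knockouts), and of the 7 fibro-adipogenic markers 4 were lower (1415 to 1931 CPM and 571 to 836 CPM). Of the 8 macrophage markers 1 was higher (69.7 to 184 CPM and 156 to 290 CPM), and 4 were without control 1 and by DESeq2. Of the 10 adipocyte markers 0 passed in either direction, and 1 was higher without control 4. Their sum still ran from 858 to 5428 CPM among the controls and from 1319 to 4313 CPM among the knockouts. Much of that sum was Car3, at 582 to 3533 CPM in controls and 489 to 1147 CPM in knockouts. Adipoq ran from 3.58 to 91.7 CPM in controls and from 32.1 to 150 CPM in knockouts. On library totals alone 9 of the muscle markers, 0 of the endothelial and 1 of the fibro-adipogenic markers were lower. On that scale 7 macrophage markers and 1 fibro-adipogenic marker were higher. Without control 4, on the composition-corrected scale, the fibro-adipogenic list had 4 lower and 1 higher. With all libraries 1 of its 7 markers, Lum, had a positive log2 fold change (0.42, edgeR adjusted p = 0.020), which did not pass. Of all genes 21.1% were lower and 23.6% higher on the composition-corrected scale, and 6.23% and 60.6% on library totals alone. No marker of these lists was at 0 in any library. The part of these shifts in the results was not tested, except that the adipocyte level was entered as a covariate, and fewer cells of a type and less RNA per cell cannot be told apart in such bulk samples.

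Bcat2 (Entrez Gene 12036, chr7:45570153-45589710 on GRCm38, plus strand) encodes the mitochondrial transaminase of the first step. Its levels were 62.5, 77.4, 68.1 and 63.2 CPM in control replicates 1 to 4, respectively, and 65.7, 49.7, 54.4 and 58.3 CPM in knockout replicates 1 to 4, an order kept for all genes. Knockout 1 lay above 2 of the controls, so the groups overlapped. The log2 fold change was -0.25 (SE 0.10, edgeR adjusted p = 0.055), which did not pass the threshold. The span of Bcat2 is overlapped by the antisense gene 0610005C13Rik, which had 2 to 13 reads per library, where Bcat2 had 774 to 1576. Whether the counting used strand is not given in the sources used here.

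BCKDH is built from an E1 enzyme of alpha and beta subunits (Bckdha, Bckdhb), the E2 transacylase that forms its core (Dbt) and the E3 dehydrogenase Dld, which it shares with other complexes. Bckdha (chr7:25629852-25658761, minus strand) had 141, 159, 148 and 147 CPM in control muscle and 155, 120, 160 and 140 CPM in knockout muscle. The knockout range enclosed the control range, and the log2 fold change was -0.052 (SE 0.094, edgeR adjusted p = 0.66). Without knockout 2, the lowest library, it was 0.012, so no direction can be given. In GENCODE M21, 61.7% of the exon bases of Bckdha also lie in exons of B3gnt8 on the other strand. The table counts B3gnt8 on a separate stretch, where it had 13 to 38 reads per library, against 1745 to 3870 for Bckdha.

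Bckdhb (chr9:83925137-84124240, plus strand), the E1 beta subunit, had 17.4, 27.9, 24.3 and 28.1 CPM in control muscle and 36.3, 38.3, 24.2 and 30.7 CPM in knockout muscle. Knockouts 1, 2 and 4 lay above every control and knockout 3 did not. Its log2 fold change was 0.40 (SE 0.17, edgeR adjusted p = 0.070), the highest of the 10 genes, and it did not pass. Dbt (chr3:116513079-116549981, plus strand) had 29.4, 40.8, 41.2 and 33.7 CPM in control muscle and 48.7, 36.0, 29.1 and 35.9 CPM in knockout muscle, with groups that overlapped throughout (log2 fold change 0.045, SE 0.16, edgeR adjusted p = 0.83). The sign for Dbt turned to -0.0031 with RLE size factors and to -0.12 without knockout 1. The 3 genes that are particular to BCKDH therefore showed no difference past the threshold on a composition-corrected scale. Dld, the shared E3 subunit, was lower at 352 ± 7.5 CPM in control muscle and 251 ± 28.9 CPM in knockout muscle (SD, n = 4 each; log2 fold change -0.48, edgeR adjusted p = 9.4e-04).

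Bckdk (chr7:127904073-127909664, plus strand), the inhibitory kinase, fell in all knockout libraries. Its levels were 207, 213, 222 and 184 CPM in control muscle and 131, 116, 139 and 122 CPM in knockout muscle, a mean of 206 ± 15.8 against 127 ± 10.4 CPM (SD, n = 4 each). The lowest control was above the highest knockout. Such groups without overlap were found for 5 of the 10 genes, all lower in the knockout, and for 53.4% of all genes, 24.4% lower and 29% higher. The log2 fold change was -0.70 (SE 0.084, edgeR adjusted p = 6.1e-05). Before scaling, the counts were alike, at 2559 to 3246 reads in control muscle and 2524 to 3377 in knockout muscle, and on library totals alone the log2 fold change was -0.033, or -0.77 relative to the median of all genes.

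Ppm1k (chr6:57506502-57535426, minus strand), the phosphatase that opposes the kinase, fell as well. It had 13.2, 14.7, 13.9 and 14.0 CPM in control muscle and 9.42, 6.64, 7.31 and 8.94 CPM in knockout muscle. No library of one group reached the other. Ppm1k had the lowest log2 fold change of the 10 genes at -0.78 (SE 0.12, edgeR adjusted p = 3.5e-04), on 145 to 226 reads per library. On library totals alone this was -0.12, or -0.85 relative to all genes.

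**Figure D1:**
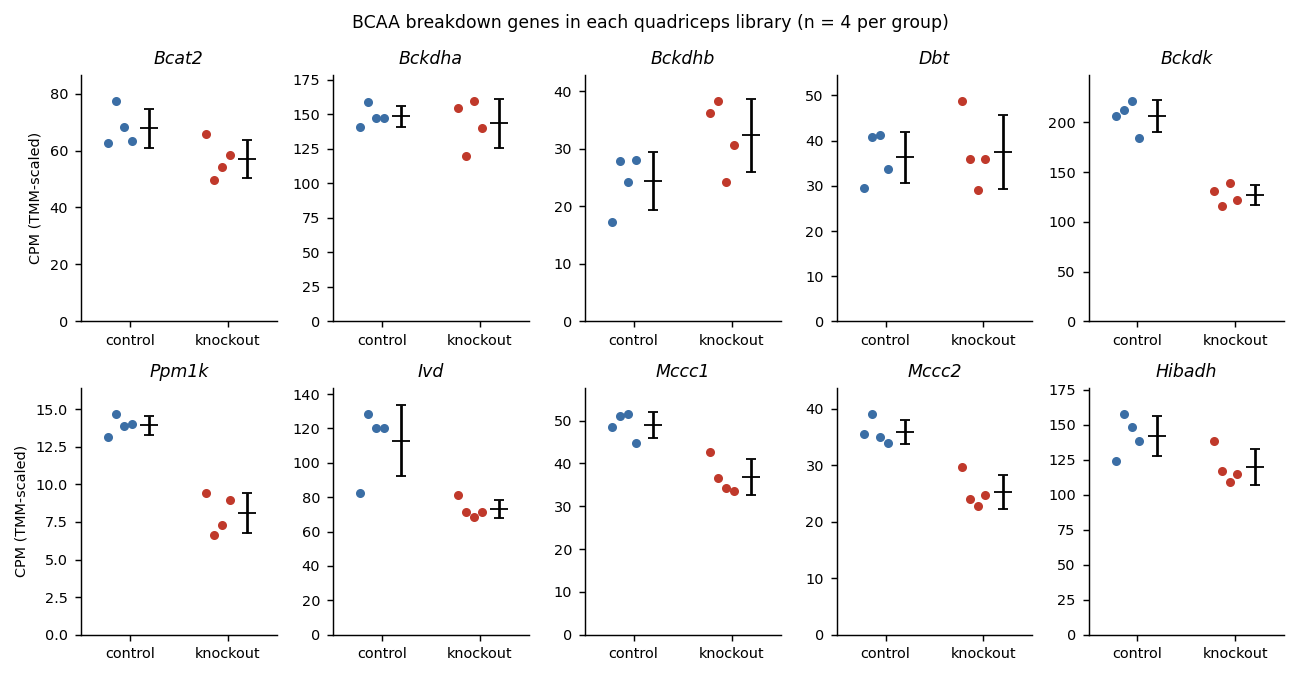
Level of each of the 10 genes in CPM (counts relative to the TMM-scaled library size, axes from 0) in the 4 control (blue) and 4 knockout (red) libraries, with the mean and SD of each group in black. The groups of Bckdk, Ppm1k, Ivd, Mccc1 and Mccc2 do not overlap and those of the other 5 genes do, and the lowest Ivd control (82.7 CPM) lies close to the highest knockout (81.1 CPM). On library totals alone the log2 fold changes of Ivd (0.037), Mccc1 (0.26) and Mccc2 (0.16) are above 0. None of these passes the threshold on that scale (edgeR adjusted p = 0.82, 0.019 and 0.16).

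Ivd (chr2:118862000-118881357, plus strand) encodes isovaleryl-CoA dehydrogenase, the first enzyme of the leucine branch. Its levels were 82.7, 128, 120 and 120 CPM in control muscle and 81.1, 71.5, 68.7 and 71.2 CPM in knockout muscle. The groups did not overlap, but control 1 stood only just above knockout 1. The log2 fold change was -0.63 (SE 0.13, edgeR adjusted p = 0.0019), and -0.75 without control 1. On library totals alone it was 0.037, which is below the median of all genes on that scale.

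Mccc1 and Mccc2 encode the alpha and beta subunits of 3-methylcrotonyl-CoA carboxylase, the biotin-dependent next step of the leucine branch. Mccc1 (chr3:35959296-36000678, minus strand) had 48.4, 51.0, 51.5 and 44.8 CPM in control muscle and 42.7, 36.7, 34.1 and 33.6 CPM in knockout muscle. Knockout 1 was the highest knockout and still lay below every control. Its log2 fold change was -0.41 (SE 0.088, edgeR adjusted p = 0.0027). Mccc2 (chr13:99948532-100015639, minus strand) had 35.5, 39.0, 35.1 and 33.9 CPM in control muscle and 29.7, 24, 22.7 and 24.7 CPM in knockout muscle. Again knockout 1 was the nearest to the controls without reaching them, and the log2 fold change was -0.51 (SE 0.092, edgeR adjusted p = 9.6e-04). On library totals alone the values were 0.26 for Mccc1 and 0.16 for Mccc2, again below the median of all genes.

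Hibadh (chr6:52546230-52640300, minus strand) encodes 3-hydroxyisobutyrate dehydrogenase of the valine branch, whose substrate can leave the muscle. It had 124, 158, 148 and 139 CPM in control muscle and 138, 117, 109 and 115 CPM in knockout muscle. Control 1 lay below knockout 1, so the groups overlapped. The log2 fold change of -0.25 (SE 0.098, edgeR adjusted p = 0.051) did not pass.

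Each of the 5 genes that fell remained past the edgeR threshold in 14 of 15 alternative analyses, including all 8 that left out a library, and lost it only on library totals alone. With library totals alone and the median shift of all genes taken off, the values of the 5 were -0.77 for Bckdk, -0.85 for Ppm1k, -0.70 for Ivd, -0.47 for Mccc1 and -0.57 for Mccc2. A change of scaling moves all genes by nearly the same amount. Taking off the median therefore gives back nearly the composition-corrected order, and these values are no separate check.

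Per kilobase of exon, a measure that allows genes to be compared, Bckdha had the highest control level at 83.9 ± 4.22 CPM per kb (SD, n = 4). Hibadh followed at 82.0 ± 8.31, Bckdk at 72.2 ± 5.54, Ivd at 54.6 ± 9.91 and Bcat2 at 30.8 ± 3.11 CPM per kb. Mccc2, Mccc1, Bckdhb and Dbt lay between 16.9 and 11 CPM per kb, and Ppm1k was lowest at 2.5 ± 0.11 CPM per kb. Among neighbours in this order, the libraries of Bckdha and Hibadh, of Hibadh and Bckdk, and of each next pair from Mccc2 to Dbt overlapped, while Bckdk and Ivd, Ivd and Bcat2, Bcat2 and Mccc2, and Dbt and Ppm1k did not. In the knockouts Bckdha again led with 80.9 ± 10.1 CPM per kb, Bckdk stood at 44.4 ± 3.64, Bckdhb at 19.98 ± 3.90 and Ppm1k at 1.45 ± 0.237. Bckdhb stood above Mccc1 and Mccc2 there, with no overlap to Mccc1, where in the controls its mean had stood below them. The span from Ppm1k to Bckdha was 33.5-fold in control muscle and 55.7-fold in knockout muscle.

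Ratios within a library do not depend on scaling between libraries, and 4 of them were tested for partners of one complex or opposed regulators. The ratio of Bckdk to Ppm1k per kb was 30.6, 28.2, 31.1 and 25.6 in control muscle and 27, 33.9, 37.1 and 26.5 in knockout muscle. Kinase and phosphatase transcripts thus kept overlapping ratios, with a log2 difference of 0.099 (exact permutation p = 0.514, Benjamini-Hochberg adjusted over the 4 ratios p = 0.686), or 0.0090 without knockout 3. The ratio of Bckdha to Bckdhb was 7.42, 5.21, 5.56 and 4.80 in control muscle and 3.90, 2.85, 6.03 and 4.17 in knockout muscle. Knockouts 1, 2 and 4 lay below every control and knockout 3 did not, and the log2 difference of -0.47 did not pass (exact permutation p = 0.143, adjusted p = 0.286). It was -0.30 without knockout 2 and -0.66 without knockout 3. Dbt to Bckdha differed by 0.094 on the log2 scale (exact permutation p = 0.686, adjusted p = 0.686). Mccc1 to Mccc2 differed by 0.096 (exact permutation p = 0.143, adjusted p = 0.286), and the ratios of this pair ran from 0.928 to 1.04 in control muscle and from 0.966 to 1.09 in knockout muscle. The groups thus overlapped in all 4 ratios and no difference passed the test, which does not show that the ratios were equal.

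**Figure D2:**
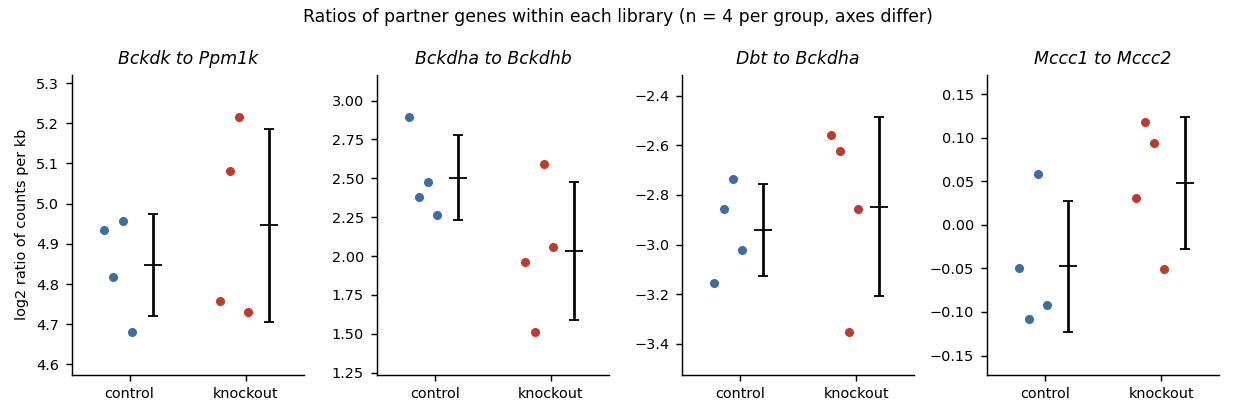
Log2 ratio of counts per kb of exon for 4 pairs of genes within each control (blue) and knockout (red) library, with the mean and SD of the 4 libraries of each group in black (the axes differ and do not start at 0). The groups overlap in all 4 panels, and the Bckdha to Bckdhb ratio of knockout 3 lies among the controls.

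The ratio of the kinase to its target, Bckdk to Bckdha per kb, was chosen after its values were seen and is given with no test. It was 0.910, 0.830, 0.932 and 0.776 in control muscle and 0.525, 0.60, 0.542 and 0.540 in knockout muscle. All knockout libraries lay below all controls, with means of 0.862 ± 0.0722 and 0.552 ± 0.0329 (SD, n = 4 each).

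The rest of the pathway was followed in 21 other genes, all of them in the table. On the composition-corrected scale 9 of these were lower and 2 higher in knockout muscle, with a median log2 fold change of -0.21. Of all genes 21.1% were lower and 23.6% higher there. On library totals alone 1 of the 21 was lower and 10 were higher, beside 6.23% and 60.6% of all genes. With a library left out, 7 to 10 were lower and 1 to 2 higher on the composition-corrected scale. The lowest of the 21 was Auh, the hydratase that follows Mccc1 and Mccc2 in the leucine branch. Its levels were 45.9, 52.6, 51.3 and 45.1 CPM in control muscle and 26.4, 22.0, 26.4 and 23.8 CPM in knockout muscle. The groups lay far apart, at a log2 fold change of -0.98 (SE 0.084, edgeR adjusted p = 6.6e-06).

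Pcca, Pccb and Mcee act on propionyl-CoA, which valine and isoleucine share as a product, and on the methylmalonyl-CoA made from it. Pcca, the biotin-carrying subunit of propionyl-CoA carboxylase, had 52.4, 66.2, 50.9 and 98.9 CPM in control muscle and 40.3, 36.4, 30.7 and 34.1 CPM in knockout muscle. Control 4 stood above the other controls, and the log2 fold change was -0.93 (SE 0.20, edgeR adjusted p = 0.0025) with it and -0.68 without it, still past the threshold. Its partner Pccb had a log2 fold change of -0.44 (SE 0.11, edgeR adjusted p = 0.0068), a call that was lost without any one of control 2, 3 or 4 or knockout 2 or 4, where the adjusted p reached 0.019. Mcee, the epimerase of the next step, changed by -0.64 (SE 0.083, edgeR adjusted p = 1.0e-04). Etfdh, which passes electrons from the acyl-CoA dehydrogenases to ubiquinone, changed by -0.63 (SE 0.094, edgeR adjusted p = 2.7e-04), and Acad8, the valine branch dehydrogenase, by -0.36 (SE 0.075, edgeR adjusted p = 0.0022).

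Hsd17b10, the dehydrogenase of the isoleucine branch that is also a subunit of mitochondrial RNase P, was higher. It had 39.9, 47.3, 44.6 and 40.8 CPM in control muscle and 80.5, 83.0, 66.9 and 66.1 CPM in knockout muscle. Every knockout exceeded every control, and the log2 fold change was 0.78 (SE 0.097, edgeR adjusted p = 7.7e-05). Bcat1, the cytosolic transaminase, was also higher but at a very low level, with 0.57, 0.59, 0.36 and 0.57 CPM in control muscle and 0.88, 1.33, 2.06 and 2.23 CPM in knockout muscle (log2 fold change 1.63, SE 0.36, edgeR adjusted p = 0.0030). This call was lost without control 3, knockout 3 or knockout 4, where the adjusted p reached 0.012. Bcat2 stood far above Bcat1 in every library.

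**Figure D3:**
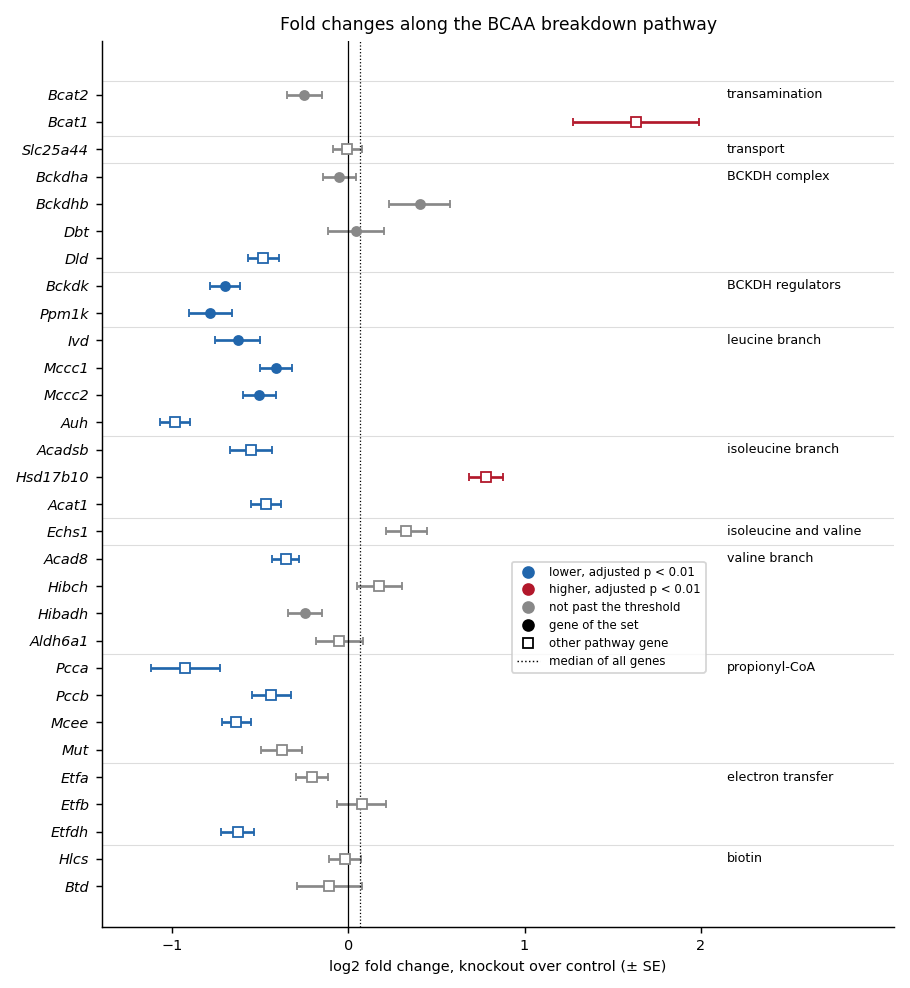
Log2 fold change of knockout over control with its SE (edgeR, 4 libraries per group, TMM scaling) for the 10 genes (filled circles) and 20 of the 21 other genes of the pathway (open squares), ordered by step, with blue for lower and red for higher at an adjusted p under 0.01. Both BCKDH regulators lie below 0 next to 3 complex subunits that did not pass, and Auh (-0.98) and Pcca (-0.93) are the lowest. On library totals alone all values would shift up, with Bckdk at -0.033 and Ppm1k at -0.12. On that scale 0 of the 10 genes would pass the threshold as lower.

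BCKDH belongs with pyruvate dehydrogenase and 2-oxoglutarate dehydrogenase to the complexes that carry lipoic acid and share Dld. Of 13 genes of those complexes and their regulators, 7 were lower and 1 higher, with a median of -0.53, on the composition-corrected scale. Over all genes 21.1% were lower and 23.6% higher. On library totals alone 2 of the 13 were lower and 4 higher, beside 6.23% and 60.6% of all genes. The list had 9 lower with RLE factors, with DESeq2 and without knockout 1. It had 8 lower with the replicate number as a block and without knockout 2. With 7 lower, it had 2 higher without knockout 3. The lowest was the kinase Pdk4, with 1569, 2680, 2480 and 2002 CPM in control muscle and 534, 88.1, 446 and 170 CPM in knockout muscle. All knockouts lay below all controls, and the log2 fold change was -2.82 (SE 0.50, edgeR adjusted p = 8.4e-04). The highest was another kinase, Pdk3, with a mean of 0.930 CPM in control muscle and 2.29 CPM in knockout muscle (1.28, SE 0.22, edgeR adjusted p = 6.3e-04). The 4 pyruvate dehydrogenase kinases thus ran from -2.82 to 1.28, with Pdk2 at -0.71 and Pdk1 at -0.27, which did not pass (edgeR adjusted p = 0.023, and 0.0075 without knockout 1). The phosphatases Pdp1 (-0.051) and Pdp2 (-0.52) did not pass (edgeR adjusted p = 0.77 and 0.056). Pdpr, another regulator of this list, was lower, at -1.68 (SE 0.17, edgeR adjusted p = 2.1e-05).

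Among 7 genes for making and attaching lipoic acid, 1 was lower (Cbr4, -0.48) and 1 higher (Mcat, 0.36), with a median of 0.037 (-0.0089 with RLE size factors, and 0 lower and 5 higher on library totals alone). The other listed symbol was not analysed here. Of 18 genes of the TCA cycle, which takes up the end products, 16 were lower and 1 higher with a median of -0.61 (4 lower and 2 higher on library totals alone). Of all genes 21.1% were lower and 23.6% higher on the composition-corrected scale, and 6.23% and 60.6% on library totals alone. The median of the 10 BCAA genes lay between that of the TCA cycle and that of all genes. Dld is counted in the TCA list and in the pathway list, and Ogdh and Dlst in the TCA list and in the dehydrogenase list.

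**Figure D4:**
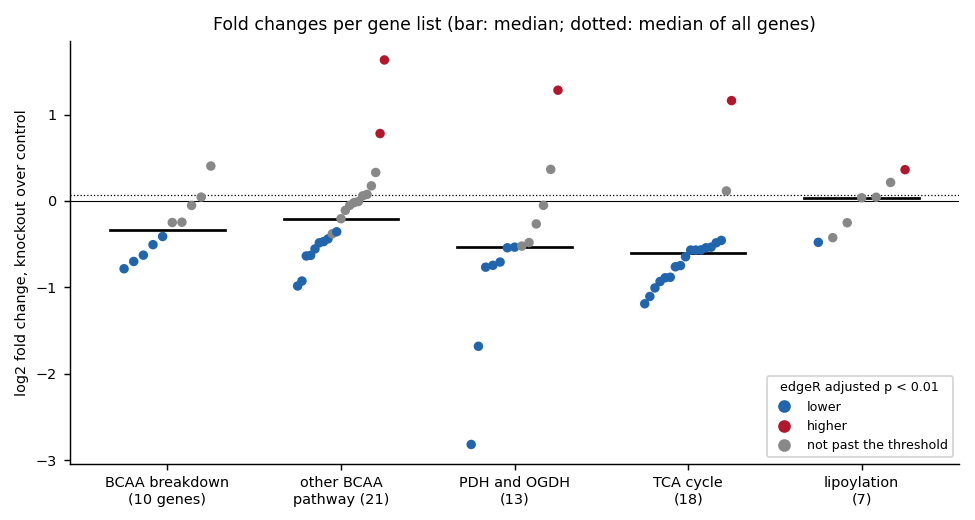
Log2 fold change of knockout over control (edgeR, 4 libraries per group, TMM scaling) for each gene of 5 lists, coloured by the test, with the median of each list as a bar and that of all genes (0.065) dotted. The medians are -0.33 for the 10 BCAA genes, -0.21 for the other pathway genes, -0.53 for the pyruvate and 2-oxoglutarate dehydrogenase (PDH and OGDH) genes, -0.61 for the TCA cycle and 0.037 for lipoylation (-0.0089 with RLE size factors), while on library totals alone the median of all genes is 0.73 and that of the 10 genes 0.34.

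Regulators that have been linked to these genes in muscle were read from a list of 8, of which 3 were lower and 1 higher. Over all genes 21.1% were lower and 23.6% higher. On library totals alone 0 of the 8 were lower and 4 higher, beside 6.23% and 60.6% of all genes. The count of lower regulators was 1 without control 2, control 3 or knockout 4 and with the adipocyte covariate, and 2 without any one of the other libraries. Klf15, a transcription factor that raises BCAA breakdown genes in fasting, had a log2 fold change of -0.032 (edgeR adjusted p = 0.84). The nuclear receptor Esrra had the lowest value (-0.85, SE 0.073, edgeR adjusted p = 7.0e-06). Its relative Esrrg had the highest, with 17.1 ± 6.58 CPM in control muscle and 110 ± 4.68 CPM in knockout muscle (SD, n = 4 each; 2.67, SE 0.24, edgeR adjusted p = 9.5e-06).

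The likeness of other genes to each of the 10 was read as Pearson's r of log2 CPM over the 8 libraries, among 8042 genes with a mean of at least 10 CPM. This is a description with no test, since all genes share the libraries and the split into groups. The most alike were Dupd1 for Bckdk (r = 0.997), Vegfa for Ppm1k (0.995), Glud1 for Ivd (0.988) and also for Hibadh (0.962), Grhpr for Mccc1 (0.995) and Slc31a1 for Mccc2 (0.986). For the genes that did not pass, they were Cox6b1 for Bcat2 (0.980), Lrrc61 for Bckdha (0.935), Mturn for Bckdhb (0.949) and Srsf4 for Dbt (0.910). Glud1 encodes glutamate dehydrogenase, which acts on the glutamate that BCAT2 makes. Among pairs of the 10 genes, Mccc1 and Mccc2 had the highest r over the 8 libraries (0.966). For deviations from the group means it was 0.835, and the highest there was 0.958, for Dbt and Hibadh.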

How the data were processed

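RNA of QF muscle from 8 mice was sequenced by the authors as poly(A)-selected, strand-specific read pairs. The deposited table holds raw counts per gene, made by the authors with bcl2fastq 2.20.0.422, STAR 2.5.4b on GRCm38 and Rsubread on exons, without duplicate and multimapping reads and without genes under 50 reads in all. The annotation release is not given in the sources used here. The table also holds FPKM values and the output of the authors' DESeq2 1.32.0 (fold changes and p-values), which were not used. The deposited exon widths gave levels per kb.

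All 14012 genes were tested with edgeR 4.0.16 (R 4.3.3; quasi-likelihood test, TMM factors, no covariate) with Benjamini-Hochberg adjustment over all of them, at an adjusted p under 0.01, and every adjusted p in the text is from it unless another is named. CPM values use TMM-scaled library sizes. Within-library ratios were compared by exact permutation, two-sided. Totals were 16017565 to 20361144 counts, and a count of 0 allows up to 3 counts (0.119 to 0.242 CPM), for counting error only. Replicates of a group differed by more than sampling noise, with a chi-square per degree of freedom of 16.8 or more.

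The 10 genes and the lists were chosen with earlier results of these data known. Named beside the 10 were the 4 largest and 4 smallest changes past the threshold among the other pathway genes, the largest and smallest in the other lists, the kinases and phosphatases of pyruvate dehydrogenase, and the gene most alike each of the 10. Dld, Pdpr and the ratio of Bckdk to Bckdha were added after their values were seen. The value of 1 other pathway gene is not reported here. Promoters came from a RefSeq table (GRCm38.p6). Alternatives were RLE and upper-quartile factors, library totals alone, filterByExpr, DESeq2 1.42.0, the replicate number as a block, an adipocyte covariate and leaving out each library. The edgeR fit was tested on counts simulated from the control proportions, with few changed genes, as many raised as lowered. That setting does not test the composition correction at the shift between these groups.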

Additional observations from a re-analysis of the deposited data

Results flagged for a closer look

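Of 38 sets of 4 libraries examined for a library far from the others, 1 was flagged by Dixon's criterion, which flags about 1 set in 20 by chance. It was the summed level of the fibro-adipogenic markers, where control 4 had 1931 CPM and the other controls 1415 to 1498 CPM. None of the 10 genes was flagged in either group.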

How the results depend on the processing

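The counts of the 10 genes past the threshold (5 lower, 0 higher) were the same under RLE and upper-quartile factors, filterByExpr, DESeq2, the adipocyte covariate, the replicate number as a block and each library left out. On library totals alone, which moved the median of all genes to 0.73 on the log2 scale, 0 of the 10 were lower and 5 higher, 1 of the other pathway genes was lower and 10 were higher, and the median of the 10 turned to 0.34, while 6.23% of all genes were lower and 60.6% higher. The log2 fold changes that turned there were 0.42 for Bcat2, 0.61 for Bckdha, 0.037 for Ivd, 0.26 for Mccc1, 0.16 for Mccc2 and 0.42 for Hibadh. In the 7 alternatives that kept all libraries, each gene of the 5 passed in 6. The sign for Dbt turned to -0.0031 with RLE factors, -0.0029 with DESeq2, and -0.042 and -0.12 without control 1 and knockout 1. With a library left out, Dbt ran from -0.12 to 0.11 and Bckdha from -0.14 to 0.012, its value without knockout 2, and the log2 difference of the Dbt to Bckdha ratio turned to -0.0023 without knockout 1. When a library was left out, the number of other pathway genes that were lower ran from 7 to 10 and the number that were higher from 1 to 2. With RLE factors and with DESeq2, 10 were lower. With the replicate number as a block, 5 of the 10 genes were lower and 0 higher, with a median of -0.33, 9 of the other pathway genes were lower and 2 higher, and 3 adipocyte markers were higher where the fit without the block had 0. The labels do not say that a number marks a shared litter or day, and the deviations of same-numbered libraries correlated at 0.118, 0.0031, 0.42 and 0.138, so not every pair passed 0.1 and pairing of the mice by number was not established. Bcat2, Bckdhb and Hibadh (adjusted p = 0.055, 0.070 and 0.051 in edgeR's test) showed no difference detectable at this threshold with 4 mice per group, which does not show that they were unchanged.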
